A study of Mus musculus with 15 samples.

Results

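Bone morphogenetic protein (BMP) signalling was followed in cultured adult neural stem cells (aNSCs) through 10 genes of the 53801 in the count table. They were the ligands Bmp3 and Bmp4, the type I receptors Bmpr1a and Bmpr1b, the inhibitory Smads Smad6 and Smad7, and the target genes Id1, Id2, Id3 and Id4. The 10 genes were chosen by name from the pathway with their levels in the 3 groups already known. Their levels and fold changes are therefore given as a description with no p-value, and the number of them called in each fit stands only beside the share of all genes called. Adjusted p-values are given for genes among 77 others of the BMP and TGF-beta pathways.

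RNA-seq was carried out on 15 aNSC cultures from the subventricular zone of 2-month-old C57BL6/J-129sv mice, 5 in each group. Every mouse carried the Rosa26-CreERT2 transgene, whose Cre recombinase is switched on by 4-hydroxytamoxifen (4-OHT) in any cell type, and at least 1 floxed allele of Trrap, the adaptor protein of several histone acetyltransferase complexes. The groups were Trrap Fl/+ cultures left untreated, Trrap Fl/+ cultures given 4-OHT, both from mice 19, 24, 26, 35 and 36, and Trrap Fl/Fl cultures given 4-OHT, from mice 27, 28, 29, 37 and 39. Mice 24, 26, 37 and 39 were labelled female and the others male. Mice numbered under 30 and over 30 thus differed in labelled sex as well, and the part of sex was not tested. The labels give 5 days of treatment, while the study's methods describe a shorter exposure to 4-OHT followed by fresh medium, and the dose is not given here because the sources differ on it. Since 4-OHT can remove 1 Trrap copy in Fl/+ cells, exposure to 4-OHT and the loss of that copy cannot be told apart in the Fl/+ cultures. No Fl/Fl culture was left untreated. In Fl/Fl against untreated cultures, exposure to 4-OHT, the Trrap genotype and the different mice therefore cannot be told apart.

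BMP ligands bind pairs of type I and type II receptor kinases, which phosphorylate Smad1, Smad5 and Smad9. These join Smad4, enter the nucleus and switch on targets, among which the Id genes respond within a short time, while Smad6 and Smad7 act back on the receptors as inhibitors. Id proteins lack a DNA-binding region of their own and hold the E proteins, so that proneural and oligodendrocyte factors such as Olig2 cannot use them. In the subventricular zone BMP signalling is known for holding stem cells in quiescence and for favouring astrocytes, and secreted antagonists such as Noggin oppose it.

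The libraries held 25.7 M to 32.2 M counts, so that 3 counts, taken as the floor of detection, were worth 0.0932 to 0.117 CPM (counts scaled by library size and TMM factor), and floors cover counting error only. Trrap itself stood at 179 to 214 CPM in untreated Fl/+, 138 to 204 CPM in Fl/+ 4-OHT and 82.8 to 142 CPM in Fl/Fl 4-OHT cultures. The highest Fl/Fl value, in mouse 29, lay within the Fl/+ 4-OHT range. The library labelled Fl/Fl 39 was labelled female but held 9 Xist counts and 6142 counts of Y-linked genes, and the Fl/+ 4-OHT library 36, labelled male, held 2117 Xist counts beside 5816 of Y-linked genes. Where leaving out the Fl/+ 4-OHT library 36 moved a fold change of the 10 genes by more than 0.15 on the log2 scale, both values are given. The neural stem cell markers, 8 genes such as Nes and Sox2, summed to between 5733 and 10234 CPM in the 15 libraries. Microglial markers summed to at most 0.868 CPM, and the 5 endothelial and pericyte markers to between 13.6 and 63.8 CPM, mostly Flt1, with Cdh5 at or under 3 counts in every library. In bulk RNA fewer cells of a type and less RNA per cell cannot be told apart, which holds for every value below.

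Levels of different genes were compared per length of exon, as RPKM, the CPM value divided by the exon length in kilobases. In untreated Fl/+ cultures Id3 was the highest of the 10 genes at 51.9 RPKM ± 8.76 (SD, n = 5). Id2 followed at 28.0 RPKM ± 6.0 and Bmpr1a at 25.0 RPKM ± 5.78, and the ranges of these 2 genes overlapped. Bmpr1b (15.5 RPKM ± 1.1) and Id1 (12.9 RPKM ± 2.17) overlapped as well. Id4 lay apart from its neighbours on both sides at 6.26 RPKM ± 1.84. Smad7 (1.24 RPKM), Bmp3 (0.667 RPKM), Bmp4 (0.236 RPKM) and Smad6 (0.0668 RPKM) closed the order, each overlapping the next. The cells thus held far more RNA of the receptors and Id genes than of these 2 ligands or of Smad6. This does not hold for every BMP ligand. Bmp7, outside the 10 and named after its values were seen, held 1012 to 2328 counts per library over 4019 exon bases. Bmp3 held 6 to 324 counts over 7398 exon bases. After 4-OHT the top of the order was the same 5 genes in both genotypes, and Bmp3 had the lowest mean, at 0.0608 RPKM in Fl/+ and 0.0761 RPKM in Fl/Fl cultures, with a range that overlapped that of Smad6 in both groups.

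**Figure D1:**
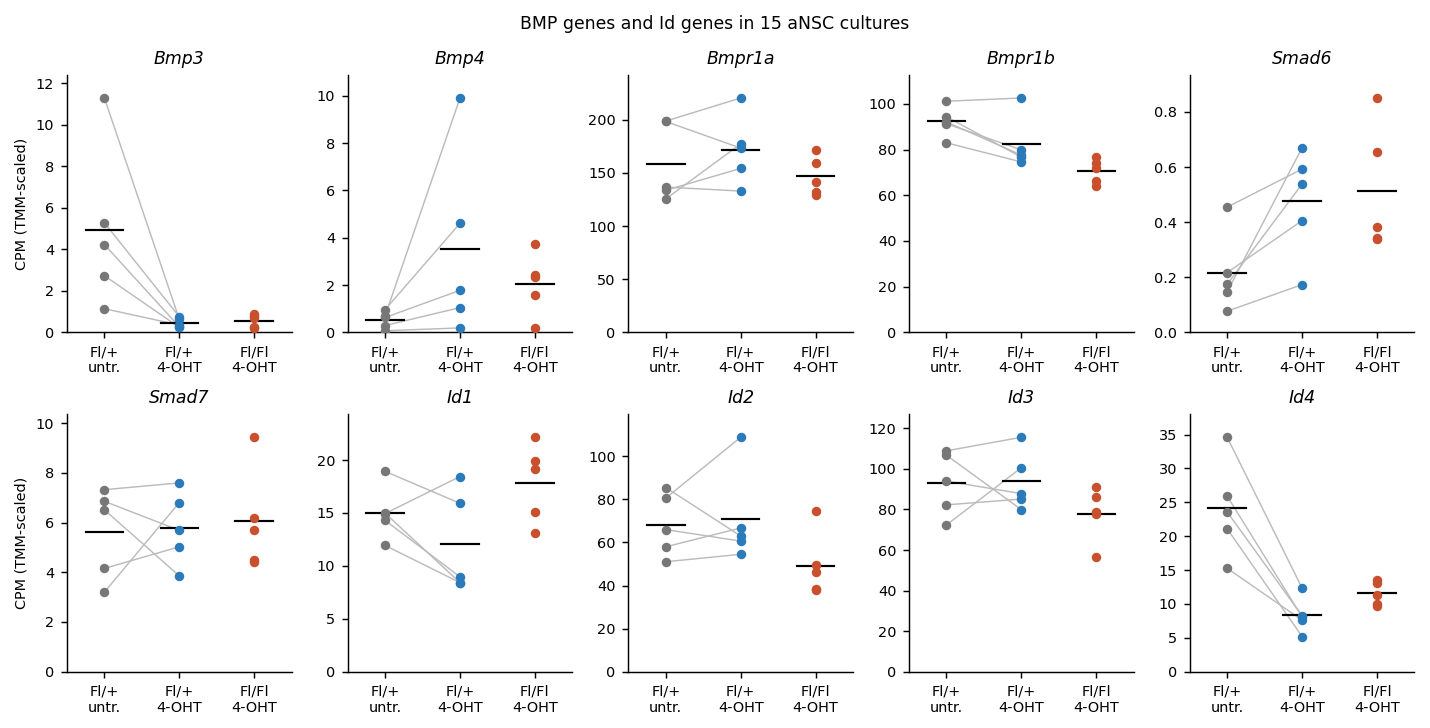
Level of each gene in every library, in TMM-scaled CPM on a linear axis from 0 (1 panel per gene, each with its own scale). Points are libraries, black bars are group means and grey lines join the 2 cultures of 1 Fl/+ mouse. Bmp3 and Id4 were lower in all 5 mice after 4-OHT, Bmp4 and Smad6 were higher in all 5, and the other 6 genes moved in both directions.

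The sequence before the transcript start is shown for the genes that moved in the same direction in all 5 mice and whose window held no annotated exon, Id4, Bmp4 and Smad6, so that the GC-box and Smad letters before the start can be seen. Each run is the 250 bases upstream of the start in RefSeq (GRCm38.p6), 5′ to 3′ in the sense of the gene, and capitals mark matches to the GC box GGGCGG or to the GC-rich Smad element GGCGCC on either strand. The Id4 window lies at chr13:48260866-48261115 on the + strand, the Bmp4 window at chr14:46390670-46390919 on the - strand, and the Smad6 window at chr9:64022060-64022309 on the - strand.
Id4: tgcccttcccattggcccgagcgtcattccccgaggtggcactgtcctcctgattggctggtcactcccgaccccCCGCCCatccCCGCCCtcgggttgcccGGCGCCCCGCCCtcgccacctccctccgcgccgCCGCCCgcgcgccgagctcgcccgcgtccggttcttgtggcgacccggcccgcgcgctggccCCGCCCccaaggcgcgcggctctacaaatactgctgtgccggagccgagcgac
Bmp4: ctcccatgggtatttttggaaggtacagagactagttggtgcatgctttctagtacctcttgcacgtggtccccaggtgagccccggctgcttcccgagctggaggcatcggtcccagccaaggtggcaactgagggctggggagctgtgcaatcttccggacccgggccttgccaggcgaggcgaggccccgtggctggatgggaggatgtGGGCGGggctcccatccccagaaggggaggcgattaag
Smad6: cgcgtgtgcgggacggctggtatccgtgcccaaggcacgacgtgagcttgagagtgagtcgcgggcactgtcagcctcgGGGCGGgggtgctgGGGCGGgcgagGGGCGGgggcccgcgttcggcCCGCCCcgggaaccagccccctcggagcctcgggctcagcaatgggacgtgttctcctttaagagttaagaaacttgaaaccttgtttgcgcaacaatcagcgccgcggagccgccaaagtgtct

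The Id4 window held 5 GC boxes and 1 GGCGCC, which did not overlap, in 75.6% G and C. The Bmp4 window held 1 GC box and 3 CANNTG E-boxes, and the Smad6 window 4 GC boxes. None of the 3 held GTCTG, the Smad binding element, on either strand. Among all 32851 upstream windows of this length in the table, 32.7% held a GC box, 9.59% GGCGCC, 42.2% GTCTG and 66.2% an E-box. Windows were found for 7 of the 10 genes and not for Bmp3, Id1 or Smad7. The windows not printed held 4 GC boxes for Bmpr1a, 1 for Id2, 2 for Id3 and 0 for Bmpr1b. Those of Bmpr1a and Id2 held 1 GGCGCC each. GC boxes were thus not particular to the genes that moved in the same direction in all 5 mice. These matches are letters only, and nothing was measured on binding.

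Bmp3, a member of the family known to oppose other BMPs in bone, showed the largest change among the 10 genes (ENSMUSG00000029335, chr5:98854415-98884396, + strand). In untreated Fl/+ cultures it stood at 4.23, 11.3, 5.28, 2.73 and 1.14 CPM for mice 19, 24, 26, 35 and 36. With 4-OHT the same mice gave 0.270, 0.633, 0.751, 0.243 and 0.353 CPM, all below every untreated culture. The Fl/Fl 4-OHT cultures of mice 27, 28, 29, 37 and 39 gave 0.777, 0.680, 0.885, 0.232 and 0.243 CPM, likewise below every untreated culture and overlapping the Fl/+ 4-OHT range. The log2 fold change was -3.45 ± 0.59 (SE) between Fl/+ 4-OHT and untreated cultures, 10.9-fold lower, and -3.10 ± 0.60 between Fl/Fl 4-OHT and untreated cultures. Between both 4-OHT groups it was 0.36 ± 0.46. Within single mice the ratio ran from 3.24-fold lower in mouse 36, which began lowest, to 17.8-fold lower in mouse 24, which began highest. The 4-OHT libraries still held 6 to 27 Bmp3 counts each, above the floor. The mean was higher in mice numbered under 30 than in those numbered over 30 in each group, with 6.94 against 1.94 CPM untreated, and the ranges of both sets overlapped in Fl/+ 4-OHT cultures.

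Bmp4, a main activating ligand of the adult niche, went the other way with a wide spread (ENSMUSG00000021835, chr14:46383520-46390669, - strand). Untreated cultures held 0.289, 0.0698, 0.630, 0.962 and 0.70 CPM for mice 19, 24, 26, 35 and 36. With 4-OHT these mice gave 1.05, 0.190, 1.78, 4.61 and 9.91 CPM. All 5 mice were higher, by 2.82-fold in mouse 26 to 14.2-fold in mouse 36 where both cultures were above the floor, but the groups overlapped because mouse 24 stayed low. That mouse held 2 Bmp4 counts untreated, under the floor, and 6 with 4-OHT. The Fl/Fl cultures of mice 27, 28, 29, 37 and 39 held 2.36, 0.170, 3.74, 2.44 and 1.60 CPM, and again 1 culture, mouse 28, was low. The log2 fold change was 2.72 ± 0.89 for 4-OHT in Fl/+ cultures, 1.86 ± 0.79 without the Fl/+ 4-OHT library 36, and it was 1.97 ± 0.70 for Fl/Fl against untreated cultures. With the mouse as a replicate block the 4-OHT value was 2.37 ± 0.38. For Fl/Fl against Fl/+ 4-OHT cultures it was -0.74 ± 0.85, and it was 0.12 ± 0.81 without the Fl/+ 4-OHT library 36, so that the sign rested on that library.

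The type I receptors were abundant in all groups and moved little. Bmpr1a (ENSMUSG00000021796, chr14:34410734-34503341, - strand) ranged from 126 to 199 CPM untreated, 133 to 220 CPM in Fl/+ 4-OHT and 129 to 172 CPM in Fl/Fl 4-OHT cultures. Its log2 fold changes were 0.12 ± 0.17 with 4-OHT, -0.21 ± 0.13 for Fl/Fl against Fl/+ 4-OHT and -0.10 ± 0.15 for Fl/Fl against untreated cultures. Untreated mice numbered over 30 (198 to 199 CPM) lay above those numbered under 30 (126 to 137 CPM), a gap larger than any of the group differences. Bmpr1b (ENSMUSG00000052430, chr3:141837136-142169425, - strand) had the smallest SD relative to its mean of the 10 genes in each group. Untreated cultures of mice 19, 24, 26, 35 and 36 held 83.0, 101, 92.1, 91.3 and 94.4 CPM. The same mice with 4-OHT held 74.6, 103, 77.6, 79.9 and 76.7 CPM, lower in 4 of 5. The Fl/Fl cultures of mice 27, 28, 29, 37 and 39 held 66.3, 76.9, 72.1, 63.9 and 74.0 CPM, all below every untreated culture. The log2 fold changes were -0.17 ± 0.10 with 4-OHT, -0.21 ± 0.10 for Fl/Fl against Fl/+ 4-OHT, and -0.37 ± 0.08 for Fl/Fl against untreated cultures.

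Smad6, which blocks the BMP receptors and their Smads (ENSMUSG00000036867, chr9:63953076-64022059, - strand), was at the edge of detection with 2 to 22 counts per library. Untreated cultures held 0.217, 0.174, 0.455, 0.0770 and 0.147 CPM for mice 19, 24, 26, 35 and 36, against 0.406, 0.538, 0.593, 0.173 and 0.670 CPM with 4-OHT. All 5 mice were higher with 4-OHT, by 1.30-fold in mouse 26 to 4.55-fold in mouse 36, and the groups overlapped. Untreated mouse 35 held 2 Smad6 counts, under the floor, and 5 with 4-OHT. Fl/Fl cultures held 0.340 to 0.851 CPM. The log2 fold change was 1.12 ± 0.46 with 4-OHT, 1.18 ± 0.34 with the mouse as a replicate block, 0.12 ± 0.38 for Fl/Fl against Fl/+ 4-OHT, and 1.24 ± 0.45 for Fl/Fl against untreated cultures. Smad7, which also restrains TGF-beta receptors (ENSMUSG00000025880), ranged from 3.20 to 7.32 CPM untreated, 3.85 to 7.60 CPM in Fl/+ 4-OHT and 4.41 to 9.43 CPM in Fl/Fl 4-OHT cultures. Its log2 fold changes were 0.05 ± 0.26, 0.07 ± 0.24 and 0.12 ± 0.28 for 4-OHT, for Fl/Fl against Fl/+ 4-OHT and for Fl/Fl against untreated cultures. The mice disagreed on the direction of Smad7, from 1.69-fold lower in mouse 19 to 2.12-fold higher in mouse 36.

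The 4 Id genes did not move as 1 group. Id4 (ENSMUSG00000021379, chr13:48261228-48266026, + strand), which with Id2 is known to delay oligodendrocyte maturation, was the one that differed most in both comparisons with untreated cultures. Untreated cultures held 15.3, 21.1, 25.9, 23.6 and 34.6 CPM for mice 19, 24, 26, 35 and 36. With 4-OHT these mice held 7.60, 5.19, 8.10, 8.25 and 12.3 CPM, each below every untreated culture. The Fl/Fl cultures of mice 27, 28, 29, 37 and 39 held 13.5, 10.1, 13.1, 9.74 and 11.4 CPM, also below every untreated culture and overlapping the Fl/+ 4-OHT range. The log2 fold change was -1.54 ± 0.25 with 4-OHT, 2.90-fold lower, and the 5 mice ran from 2.01-fold to 4.06-fold lower. It was -1.05 ± 0.20 for Fl/Fl against untreated cultures and 0.50 ± 0.20 for Fl/Fl against Fl/+ 4-OHT cultures. Without the Fl/+ 4-OHT library 36 it was -1.71 ± 0.24 with 4-OHT and 0.66 ± 0.17 for Fl/Fl against Fl/+ 4-OHT cultures.

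Id1, the Id gene tied most closely to BMP in stem cells (ENSMUSG00000042745, chr2:152736251-152737410, + strand), split the Fl/+ mice instead. Untreated cultures held 15.0, 14.3, 11.9, 18.9 and 14.9 CPM for mice 19, 24, 26, 35 and 36. With 4-OHT mice 19, 24 and 26 held 8.42, 8.96 and 8.41 CPM, below every untreated culture, while mice 35 and 36 held 15.9 and 18.4 CPM. The Fl/Fl cultures of mice 27, 28, 29, 37 and 39 held 19.2, 13.1, 15.1, 19.9 and 22.2 CPM, overlapping both Fl/+ groups. The log2 fold change was -0.32 ± 0.25 with 4-OHT, 0.59 ± 0.25 for Fl/Fl against Fl/+ 4-OHT, and 0.27 ± 0.17 for Fl/Fl against untreated cultures. Without the Fl/+ 4-OHT library 36 the first of these was -0.51 ± 0.23 and the second 0.78 ± 0.23. Among mice numbered under 30 the 4-OHT means were 8.60 CPM in Fl/+ and 15.8 CPM in Fl/Fl cultures, and among those numbered over 30 they were 17.2 and 21 CPM.

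Id2 (ENSMUSG00000020644, chr12:25093799-25097140, - strand) was of similar level in both Fl/+ groups and lower in most Fl/Fl cultures. Untreated mice 19, 24, 26, 35 and 36 held 58.0, 51.1, 85.5, 66 and 80.6 CPM, and with 4-OHT 66.8, 54.5, 63.0, 60.6 and 109 CPM. The Fl/Fl cultures of mice 27, 28, 29, 37 and 39 held 38.2, 46.3, 49.4, 74.4 and 37.7 CPM, so that 4 of 5 lay below every Fl/+ culture and mouse 37 did not. The log2 fold change was 0.05 ± 0.20 with 4-OHT, -0.51 ± 0.22 for Fl/Fl against Fl/+ 4-OHT, and -0.46 ± 0.20 for Fl/Fl against untreated cultures. Without the Fl/+ 4-OHT library 36 the first was -0.14 ± 0.15 and the second -0.32 ± 0.19. Id3 (ENSMUSG00000007872, chr4:136143497-136145755, + strand), the most abundant of the 4, ranged from 72.4 to 109 CPM untreated, 79.9 to 116 CPM in Fl/+ 4-OHT and 56.3 to 91.1 CPM in Fl/Fl 4-OHT cultures. Its log2 fold changes were 0.02 ± 0.14, -0.25 ± 0.14 and -0.24 ± 0.14 in the same order. Between both 4-OHT groups Id1 and Id4 were thus on the higher side and Id2 and Id3 on the lower side, with all 4 genes overlapping between the groups.

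**Figure D2:**
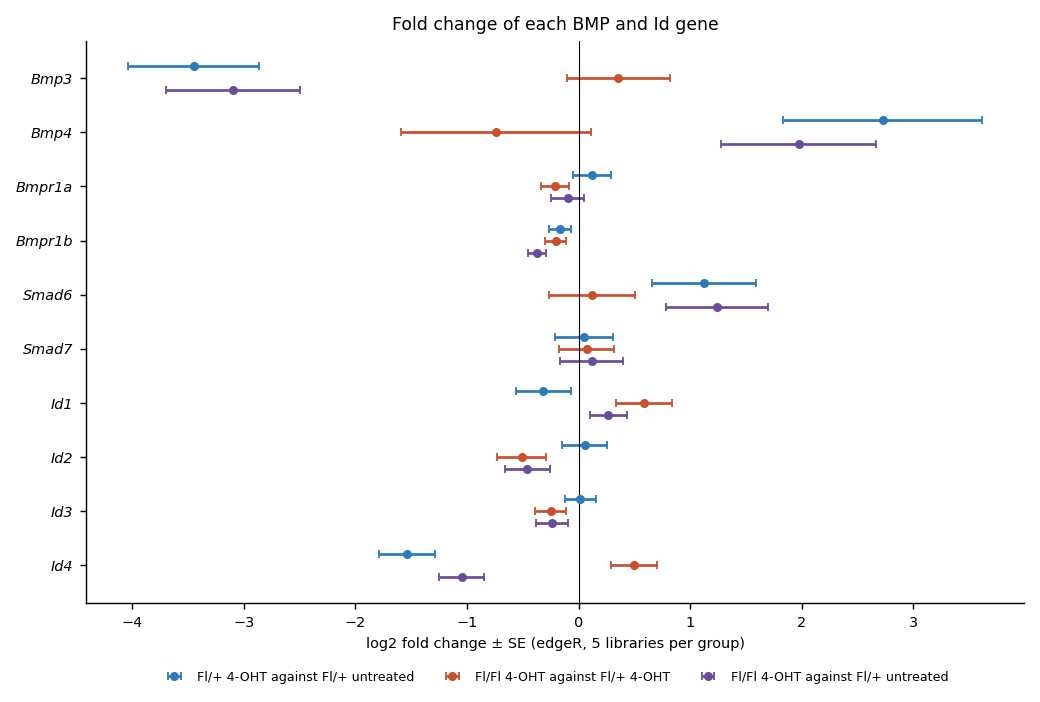
Log2 fold change of the 10 genes with its standard error (edgeR, 5 libraries per group) in the 3 comparisons, 1 colour each. Bmp3 and Id4 lay to the left and Bmp4 and Smad6 to the right in both comparisons with untreated cultures. All 10 genes lay between -0.74 and 0.59 for Fl/Fl against Fl/+ 4-OHT.

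Since the fold changes took part in the choice of genes, the counts of calls are printed only beside the share of all genes called by edgeR's quasi-likelihood test at an adjusted p under 0.05. With 4-OHT in Fl/+ cultures 2 of the 10 genes were called, Bmp3 and Id4, where 13.8% of all 14821 genes tested were called. With the mouse as a replicate block, which the design allows as both cultures came from 1 mouse, 4 were called, Bmp4 and Smad6 being added, where 25.7% of all genes were called. Where at least 10 counts were required in every library, 1 was called, Id4, and 13.9% of all genes. For Fl/Fl against untreated cultures 3 were called, Bmp3, Bmpr1b and Id4, where 30.7% of all genes were called, and scaling by library size alone gave 5, adding Bmp4 and Smad6, where 31.6% of all genes were called. Requiring 10 counts in every library left 2 called there, Bmpr1b and Id4, and 31.7% of all genes, as Bmp3 was then not tested. DESeq2 called 3 of the 10 for 4-OHT, where it called 20.1% of all genes, and 4 for Fl/Fl against untreated cultures, where it called 36%, adding Bmp4 in both. For Fl/Fl against Fl/+ 4-OHT cultures 0 of 10 were called by edgeR, where 31.7% of all genes were called. 3 of the 10 genes (Id1, Id2 and Id4) had an unadjusted p under 0.05 there, as had 43% of all genes, and DESeq2 also called 0, where it called 36.4% of all genes. Without the Fl/+ 4-OHT library 36 the same comparison called 2 genes, Id1 and Id4, and 27.9% of all genes. Without the Fl/Fl library 37 it called 1, Id2 (-0.72 ± 0.19), and 29.2% of all genes. Without the libraries of mice 36 and 39 together it called 1, Id4 (0.68 ± 0.19), and 23.2% of all genes. With the mouse number series as a covariate it called 1, Id1, and 36.3% of all genes. The median log2 fold change of the 10 genes was 0.03 with 4-OHT, -0.07 for Fl/Fl against Fl/+ 4-OHT and -0.17 for Fl/Fl against untreated cultures, beside -0.011, 0.017 and 0.0025 over all genes tested.

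**Figure D3:**
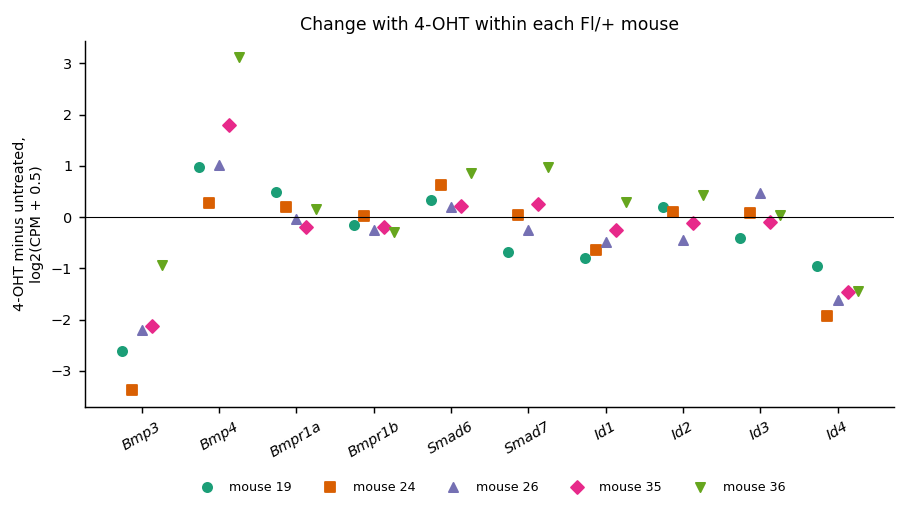
Change between the 4-OHT and the untreated culture of each Fl/+ mouse, as the difference of log2(CPM + 0.5), with 1 symbol per mouse and 0 marked by a line. The 5 symbols of Bmp3 and of Id4 lay below 0 and those of Bmp4 and Smad6 above 0, while mouse 36 alone was above 0 for Id1.

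Some cell type markers differed between the groups. With 4-OHT 13.8% of all genes were called. The share was 31.7% for Fl/Fl against Fl/+ 4-OHT and 30.7% for Fl/Fl against untreated cultures. Of 8 oligodendrocyte lineage markers, 6 were higher with 4-OHT by the same test, among them Sox10 (1.94 ± 0.45) and Pdgfra (1.49 ± 0.36). The summed level of the 8 ran from 314 to 896 CPM untreated, 813 to 1410 CPM in Fl/+ 4-OHT and 883 to 3119 CPM in Fl/Fl 4-OHT cultures, and Mog was at or under 3 counts in every untreated library. Of 7 astrocyte markers, Gfap was higher with 4-OHT (3.25 ± 0.85) and S100b, Gja1 and Slc1a3 were lower, and the sum of the 7 overlapped between the groups, with 5556 to 7347 CPM untreated, 5428 to 7000 CPM in Fl/+ 4-OHT and 4910 to 8850 CPM in Fl/Fl 4-OHT cultures. The sum of 8 neuron markers ran from 865 to 1138 CPM untreated, 827 to 1012 CPM in Fl/+ 4-OHT and 563 to 815 CPM in Fl/Fl 4-OHT cultures. Ependymal markers, 4 genes of which Tmem212 was at or under 3 counts throughout, summed to 28.0 to 65.0, 39.9 to 92.6 and 77.3 to 104 CPM in the same order. The sum of 5 endothelial and pericyte markers ran from 13.6 to 25.6 CPM untreated, 21.8 to 63.8 CPM in Fl/+ 4-OHT and 22.5 to 48.9 CPM in Fl/Fl 4-OHT cultures, and Flt1 was higher with 4-OHT (1.11 ± 0.33). Of the 8 neural stem cell markers Vim was higher (0.49 ± 0.12) and Pax6 lower (-0.55 ± 0.13) with 4-OHT, and of the 8 neuron markers Gad1 was lower. Between both 4-OHT groups the ependymal marker Rsph1 was higher in Fl/Fl cultures (1.77 ± 0.26), 1 of 3 tested. There 3 of 8 neural stem cell markers (Sox2, Fabp7 and Prom1, 37.5%) and 2 of 8 neuron markers (Tubb3 and Dcx, 25.0%) were lower, near the share of all genes. Of the oligodendrocyte lineage and astrocyte markers 0 of 8 and 0 of 7 were called. Compared with untreated cultures, 6 of 8 oligodendrocyte lineage markers and the 3 ependymal markers tested were higher in Fl/Fl cultures, 6 of 8 neuron markers and 3 of 8 neural stem cell markers were lower, and of 7 astrocyte markers 1 was higher and 3 lower. The mitochondrial share of the counts was 1.72, 2.39, 2.71, 3.56 and 2.24% in the untreated cultures of mice 19, 24, 26, 35 and 36, and 1.74, 0.849, 1.16, 1.52 and 1.73% with 4-OHT, lower in 4 of 5 mice. In Fl/Fl cultures it ran from 1.36 to 2.19%. The part of these markers and of the mitochondrial share in the values of Bmp3, Bmp4, Id4 and the other genes was not tested.

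The other 77 pathway genes were listed by their role, with earlier results of these data known. With 4-OHT in Fl/+ cultures 5 of the 56 tested (8.9%) passed edgeR's test, 3 higher and 2 lower, beside the 13.8% of all genes. Bmp6, another activating ligand, rose by 1.83 ± 0.33 on the log2 scale (adjusted p = 0.0053, edgeR), from 0.181 to 0.654 CPM untreated to 0.823 to 1.52 CPM. Nog, which encodes the antagonist Noggin, fell by 1.29 ± 0.25 (adjusted p = 0.0071, edgeR), from 2.36 to 5.07 CPM to 1.23 to 1.97 CPM. Neither gene overlapped between the groups. Tgfbr2, the type II receptor of TGF-beta, rose by 1.19 ± 0.26 (adjusted p = 0.014, edgeR). Smad3, a carrier of TGF-beta signals that is named here after its values were seen, rose by 0.80 ± 0.22. The Smad3 call (adjusted p = 0.033, edgeR) was lost on leaving out any 1 of 8 libraries, untreated 19, 24, 26 or 36 or Fl/+ 4-OHT 19, 24, 35 or 36, with adjusted p of 0.052 to 0.076 and log2 fold changes of 0.695 to 1.06 over all 10 fits. With the mouse as a replicate block 12 of the 56 passed, 3 higher and 9 lower. The 12 were the same 5 and Msx1, Olig1, Rgma, Smad5, Smoc1, Tob2 and Zfp423. In that fit 25.7% of all genes passed, 2046 higher and 1763 lower.

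The BMP receptors and the Smads that carry the BMP signal gave no call with 4-OHT in the unpaired test. The type II receptor Bmpr2 stood at 137 CPM ± 29.9 (SD, n = 5) untreated and 141 CPM ± 18.5 with 4-OHT. Its log2 fold change was 0.05 ± 0.15, and those of Acvr1, Acvr2a and Acvr2b were -0.16 ± 0.10, -0.23 ± 0.12 and 0.10 ± 0.18. The values of Smad1, Smad5, Smad9 and Smad4 were 0.06 ± 0.10, -0.27 ± 0.11, -0.35 ± 0.32 and 0.18 ± 0.08. The Smad9 value rested on untreated library 35 and was 0.001 without it.

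For Fl/Fl against Fl/+ 4-OHT cultures 15 of 58 tested pathway genes (25.9%) passed the test, 4 higher and 11 lower, beside the 31.7% of all genes. Over all genes 2520 calls were higher and 2253 lower. The median log2 fold change was -0.115 for the pathway genes and 0.017 over all genes tested. Acvr2b, a type II receptor shared by BMPs and activins, fell by 1.65 ± 0.20 (adjusted p = 0.00025, edgeR). It stood at 7.30, 7.09, 7.23, 4.37 and 5.89 CPM in the Fl/+ 4-OHT cultures of mice 19, 24, 26, 35 and 36 and at 1.80, 2.24, 2.52, 1.86 and 1.63 CPM in the Fl/Fl cultures of mice 27, 28, 29, 37 and 39. The groups did not overlap, and the untreated cultures, at 5.10 to 7.01 CPM, lay inside the Fl/+ 4-OHT range. Smad4, the partner of all signal-carrying Smads, fell by 0.44 ± 0.07 (adjusted p = 0.001, edgeR), from 72.5 to 84.2 CPM to 54.3 to 64.3 CPM, with no overlap. Bmpr2 (-0.11 ± 0.11), Acvr1 (0.17 ± 0.11), Acvr2a (-0.28 ± 0.11), Smad1 (-0.16 ± 0.08), Smad5 (-0.22 ± 0.13) and Smad9 (-0.14 ± 0.31) did not pass.

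Among secreted antagonists and modulators 4 of 13 tested (30.8%) passed, 2 in each direction, near the 31.7% of all genes. Fstl3, a follistatin-like binder of activins, rose by 1.64 ± 0.49 (adjusted p = 0.026, edgeR) from 0.119 to 0.485 CPM to 0.417 to 2.01 CPM, levels near the floor. Its call was lost without Fl/+ 4-OHT library 19, 26 or 36 or Fl/Fl library 37 (adjusted p of 0.053 to 0.06), and its log2 fold change ran from 1.19 to 1.85 over the 10 fits. Nog was higher by 0.76 ± 0.26 (adjusted p = 0.042, edgeR), and this call was lost without any 1 of 7 libraries, Fl/+ 4-OHT 19, 24, 26 or 35 or Fl/Fl 27, 28 or 29 (adjusted p of 0.052 to 0.1, log2 fold change of 0.58 to 0.89 over all fits). The remaining calls are named after their values were seen. Fstl1 and Fst, which bind ligands outside the cell, fell by 0.70 ± 0.10 and 0.70 ± 0.19 with no overlap between the groups.

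The list of E proteins, the direct partners of the Id proteins, and related factors held 2 calls among 8 tested (25.0%), beside the 31.7% of all genes. Tcf3 fell by 0.55 ± 0.10 (adjusted p = 0.0017, edgeR) and Tcf4 by 0.34 ± 0.06 (adjusted p = 0.002, edgeR), while Tcf12 was at -0.14 ± 0.15 and did not pass. The BMP and Notch target Hey1 fell by 0.45 ± 0.10. In the TGF-beta arm the type I receptor Tgfbr1 fell by 0.88 ± 0.14 and Smad2 by 0.27 ± 0.07, while the ligand Gdf11 rose by 0.59 ± 0.12 and Smad3 by 0.40 ± 0.11. The calls of Smad3, Rgma (a co-receptor, -0.49 ± 0.15) and Smurf2 (a ubiquitin ligase for Smads, -0.17 ± 0.06) were lost on leaving out any of 2, 4 and 7 libraries respectively. For Smad3 these were Fl/+ 4-OHT 19 and 36 (adjusted p of 0.052 to 0.061), for Rgma Fl/+ 4-OHT 24 and Fl/Fl 27, 28 and 39 (0.055 to 0.069), and for Smurf2 Fl/+ 4-OHT 19, 24, 35 and 36 and Fl/Fl 27, 28 and 39 (0.051 to 0.1). The other 10 calls held in all 10 fits.

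**Figure D4:**
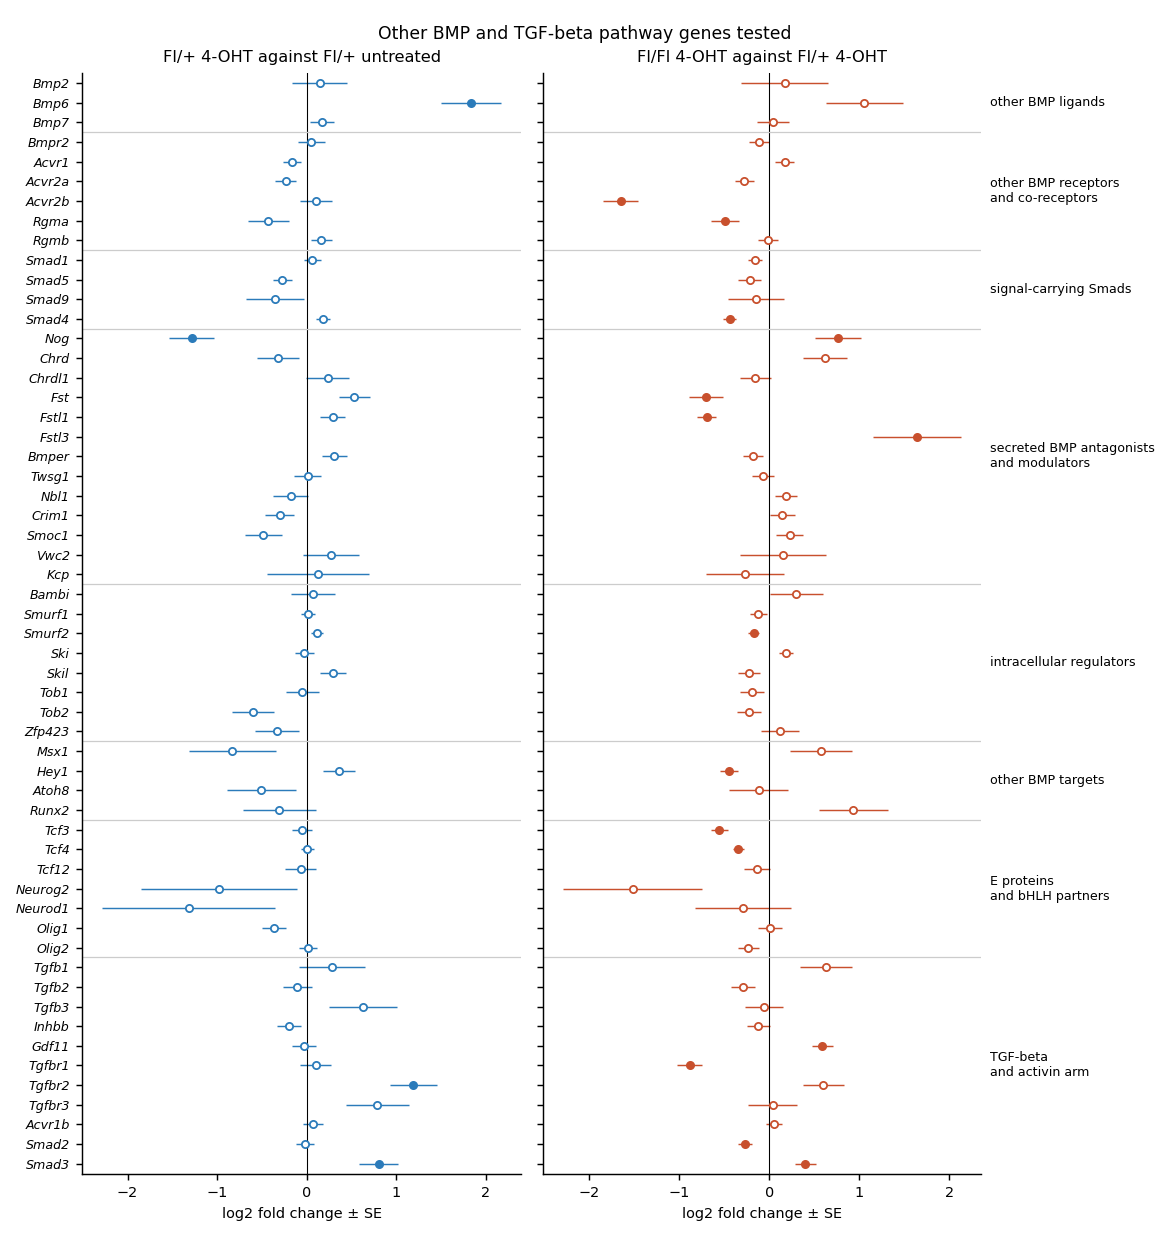
Log2 fold change with its standard error of the other BMP and TGF-beta pathway genes tested, ordered by role, for Fl/+ 4-OHT against untreated (left, 55 genes shown) and Fl/Fl against Fl/+ 4-OHT cultures (right, 56 genes shown). Filled points had an adjusted p under 0.05 (edgeR). Of the genes shown, 4 passed on the left and 15 on the right, 11 of them lower, with Acvr2b the lowest of the right panel at -1.65. Over all genes the comparison on the right called 2520 higher and 2253 lower.

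For Fl/Fl 4-OHT against untreated Fl/+ cultures 30.7% of all genes passed, 2357 higher and 2263 lower. Of 58 pathway genes 20 (34.5%) passed, 7 higher and 13 lower. Scaling by library size alone left 15 of these, 7 higher and 8 lower, beside 31.6% of all genes. Bmp6 was higher by 2.89 ± 0.52, or by 2.25 ± 0.34 without Fl/Fl library 37, Tgfbr2 by 1.79 ± 0.29 and Smad3 by 1.2 ± 0.20. Acvr2b was lower by a log2 fold change of -1.55 ± 0.19, Acvr2a by -0.52 ± 0.09, Smad5 by -0.49 ± 0.12 and Smad4 by -0.27 ± 0.08, and the Smad4 call was lost without untreated library 24 or Fl/Fl library 27, 29 or 37 (adjusted p of 0.051 to 0.067, edgeR). The 3 comparisons share cultures, so their values stand side by side and were not set against each other. Of the 77 genes, 19 were too low to be tested in any comparison, among them the ligands Gdf2, Gdf5 and Bmp5, the receptor Acvrl1 and the antagonist Grem1, and the highest level among the 19 was 2.01 CPM.

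Genes whose pattern over the 15 libraries was most like each of the 10 were listed by Pearson's r of log2(CPM + 0.5) over 13333 genes whose mean reached 1 CPM. The 15 points share mice, groups and library depth, so r is a description. For Bmp3 these were Klhl5 (r = 0.943), Smpd2 (0.942) and 2810013P06Rik (0.937), and for Id4 Gm33680 (0.927), 1700066M21Rik (0.921) and Nt5c2 (0.915). Id1 ran closest to Arpc3 (0.918), Gm6548 (0.916) and Ptpn2 (0.880), Id2 to Pacs2 (0.899), Cdk14 (0.853) and Camsap2 (0.839), and Id3 to Cfap20 (0.905), Pttg1 (0.894) and Ccdc61 (0.865). Bmpr1a ran closest to Arih1 (0.946), Kpna3 (0.939) and Mob1b (0.935), and Bmpr1b to Adamts12 (0.926), Trps1 (0.915) and Map4k4 (0.910). Smad6 ran closest to Fam43a (0.927), Epb41l2 (0.891) and Rnf112 (0.871), and Smad7 to Ddit3 (0.918), Dbp (0.890) and Myd88 (0.864). The matches of Bmp4 were the weakest, Arntl2 (0.754), Nr4a1 (0.753) and Nemf (0.749). None of the 10 genes was among the 3 closest genes of another.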

How the data were processed

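RNA was sequenced from 15 aNSC cultures (5 per group). Per the methods and labels, the authors made stranded poly(A) libraries, pooled them on the same lanes, mapped single-end reads to GRCm38 with STAR 2.5.4b and counted unique reads per Ensembl gene with featureCounts 1.5.0, so the deposited values are raw counts. Reads carried no molecular identifiers. Of 53801 IDs, 53706 matched a GENCODE M21 symbol.

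Each comparison used its own 10 libraries without a covariate, with edgeR 4.0.16 in R 4.3.3 (filterByExpr with a minimum count of 10, TMM scaling, quasi-likelihood F test, Benjamini-Hochberg adjusted p under 0.05). DESeq2 1.42.0 was an alternative. CPM used 1 TMM scale over 15 libraries, RPKM the union exon length, and per-mouse changes a pseudocount of 0.5. Errors of fold changes are SE.

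The 10 genes and all lists were chosen with earlier results of these data known. Besides the 10, the rule named the tested receptors and signal-carrying Smads, called pathway genes with a log2 fold change of at least 1, and the 3 genes most like each of the 10. Alternatives were other scalings, filters, tools and covariates, each library left out, and, chosen after seeing the data, the mouse number series and fits without mice 36 and 39.

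By the numbers in the labels, each Fl/+ mouse gave 1 untreated and 1 4-OHT culture. Deviations from the group means over 15435 genes correlated at 0.156 to 0.626 within the 5 mice and at -0.549 to 0.339 between different mice, so a fit with the mouse as replicate block was run. The labels give 1 number per mouse, and the spread between cultures of different mice is what p-values measure.

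Some pathway genes that enter the counts are not reported here by name or drawn.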

Additional observations from a re-analysis of the deposited data

Results flagged for a closer look

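In 66 sets of 5 libraries (22 genes in 3 groups), 7 held a library set apart from the other 4 by Dixon's criterion, and chance flags about 1 in 20 groups. Bmpr1b stood at 103 CPM in Fl/+ 4-OHT mouse 24, against 74.6 to 79.9 CPM in the other Fl/+ 4-OHT cultures. Id2 stood at 109 CPM in Fl/+ 4-OHT mouse 36, against 54.5 to 66.8 CPM. Smad1, which carries the BMP signal, stood at 91.9 CPM in Fl/+ 4-OHT mouse 26, against 79.6 to 82.1 CPM. Smad9, a close relative, stood at 5.93 CPM in untreated mouse 35, against 2.13 to 2.94 CPM, and at 1.36 CPM in Fl/+ 4-OHT mouse 24, against 2.68 to 2.84 CPM. Fstl3 stood at 0.184 CPM in untreated mouse 36, against 0.0349 to 0.0385 CPM in the others, which were below 3 counts. Bmp6 stood at 6.50 CPM in Fl/Fl mouse 37, against 1.41 to 2.08 CPM. No difference between 2 effects was tested for these genes.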

How the results depend on the processing

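Of the 30 fold changes of the 10 genes, 23 kept their sign under every alternative. The exceptions were Bmp4, Smad6 and Smad7 for Fl/Fl against Fl/+ 4-OHT, Id2, Id3 and Smad7 for 4-OHT, and Smad7 for Fl/Fl against untreated cultures. For Fl/Fl against Fl/+ 4-OHT, leaving out 1 library called 0 to 2 of the 10 genes and 24.8 to 31% of all genes, and 1 was called with the mouse number series as a covariate (Id1, where 36.3% of all genes were called) or without the libraries of mice 36 and 39 (Id4, 23.2%). For 4-OHT, the replicate block gave 4 of the 10 genes, 12 pathway genes and 3809 genes in all (25.7%), in place of 2, 5 and 2044 (13.8%), and requiring 10 counts in every library gave 1 of the 10, as Bmp3 was then not tested, and 13.9% of all genes. Pathway calls for 4-OHT were 9 with a dispersion shared by 15 libraries (17.7% of all genes), 10 with the labelled sex as covariate (19.8%), 9 with the series covariate (21.4%) and 4 to 8 without 1 library (8.46 to 16.7%). All-gene calls for 4-OHT were 3170 with the series covariate and 1271 to 2522 without 1 library, the lowest without Fl/+ 4-OHT library 19 (1271) or 35 (1311). For Fl/Fl against untreated cultures, scaling by library size alone called 5 of the 10 genes and 31.6% of all genes. Fits without 1 library called 3 or 4 of the 10 there, and 24.3 to 31% of all genes. Smad6 was added without untreated library 26, and Bmp4 without untreated library 35 or Fl/Fl library 28. Id2 (-0.657) was added without Fl/Fl library 37, where 26.5% of all genes were called. Leaving out 1 library gave 11 to 18 pathway calls for Fl/Fl against Fl/+ 4-OHT, where 24.8 to 31% of all genes were called. It gave 15 to 21 for Fl/Fl against untreated cultures, where 24.3 to 31% were called. The cause of these shifts was not tested. Library size alone also moved the split of higher and lower genes, to 1396 and 712 from 1088 and 956 for 4-OHT and to 3150 and 1603 from 2357 and 2263 for Fl/Fl against untreated cultures. Depth limited Smad6, Bmp3 after 4-OHT and untreated Bmp4, where libraries held as few as 2, 6 and 2 counts.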

Other observations

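A few low pathway genes were present in 3 libraries and close to absent from the rest, and they are described after their values were seen. Dlx5, a homeobox target of BMP signalling, stood at 0.810 CPM in untreated mouse 36, 2.01 CPM in Fl/+ 4-OHT mouse 36 and 1.38 CPM in Fl/Fl mouse 29, and at 0.034 CPM or less in the other 12 libraries. Sostdc1, a secreted BMP antagonist, stood at 0.957, 0.987 and 0.688 CPM in the same 3 libraries and at 0.139 CPM or less elsewhere. Fl/Fl mouse 37 held the highest levels of Bmp6 (6.50 CPM), Fstl3 (2.01 CPM) and Bmp2 (1.59 CPM) among all 15 libraries.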
